A study of Mus musculus with 96 samples.

Results

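Transcripts of 10 heat-shock chaperone genes were counted in nuclear RNA from the visual cortex of adult mice, in darkness and after 1 h of light. The genes are Hsph1, Dnajb1, Dnajb5, Hspa1a, Hspa1b, Hspa8, Hsp90aa1, Hspa5, Hspb1 and Hspd1, chosen by name, and they are 10 of the 55335 gene identifiers counted. Chaperones bind proteins that are unfolded or newly made and keep them from clumping. When unfolded protein builds up, heat-shock factor 1 (HSF1) is released from chaperones, binds heat-shock elements in promoters and starts transcription of the inducible members, and in the endoplasmic reticulum (ER) a separate response raises chaperones through ER stress elements. Neurons also make several of these proteins at all times, where they serve folding, vesicle uncoating and synaptic protein turnover, and handling of tissue can itself start the heat-shock response.

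The study asked how RNA in VIP cells, a class of cortical interneuron named for vasoactive intestinal peptide, responds to light once enhancers of Igf1 (insulin-like growth factor 1) have been deleted. Every mouse carried 1 Flp allele at Vip (VIP flp/wt) and both copies of 1 of 3 alleles flanked for deletion, Igf1-E1 fl/fl, Igf1-E23 fl/fl or Igf1-E123 fl/fl, here called lines E1, E23 and E123. At 55 to 60 days of age an AAV-Syn1-fDIO-mScarlet-KASH-2a virus gave either Cre, which cuts the flanked enhancers, or dCre, its inactive form. Its cargo depends on Flp and is driven by the neuronal Syn1 promoter. Because dCre is inactive, the dCre mice carry the same alleles with intact enhancers. Housing in full darkness began 3 days after injection and lasted 10 to 12 days, and cortices were taken at its end or after 1 h of light. From each condition pools of 50 to 100 nuclei were sorted as VIP nuclei or as total nuclei, a sample of all cells.

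The 96 libraries form 24 groups. For each fraction, line E1 gave 3 dark and 5 light dCre libraries and 5 dark and 4 light Cre libraries. Lines E23 and E123 gave 4 libraries in every such condition, apart from dark Cre line E123 with 3. Over the 3 lines this makes 11 dark and 13 light dCre libraries and 12 dark and 12 light Cre libraries. The labels number the replicates as biological replicates but do not say whether a dark and a light library share a litter or a day. VIP libraries held 1559883 to 9122515 counts and total libraries 1881731 to 8972526. The summed level of 13 VIP markers was 11399 to 42272 CPM (read counts scaled to library size) in VIP libraries and 332 to 1813 CPM in total libraries, and none of the 13 was at 0 in all of them. Igf1 itself was lower with Cre than with dCre in VIP nuclei, by a log2 difference of -0.45 ± 0.138 (SE) in the dark and -0.77 ± 0.132 in light, with adjusted p = 0.0394 and 0.00761 in edgeR. In the dark comparison no gene, Igf1 included, passed without line E1 or with the length index described below as a covariate.

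Some libraries stood apart before any comparison. The length index of a library is the mean log2(CPM + 1) of protein-coding genes longer than 100000 bases minus that of genes shorter than 10000 bases. Only genes with enough counts to test were used, and the chaperone genes named above were left out of both means. Long genes are rich in intronic, nuclear RNA, so the index describes the makeup of the RNA that was captured. It was 4.37 to 4.42 in replicates 1 and 2 of dark dCre mice of lines E1 and E123, and at most 3.55 in the other 44 VIP libraries. Replicate 2 of dark dCre line E123 was labelled female but held almost no Xist and 200.4 CPM of 4 genes of the Y chromosome in its VIP library, and its total library did likewise. The other 94 libraries matched their sex label. Results of dCre VIP light and of the dark comparison of viruses are given with and without these libraries.

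The promoters were searched for exact letters of the elements that HSF1 and the ER stress response are known to use. RefSeq promoter windows on GRCm38.p6, from 250 bases before to 50 after the start site, were found for 8 of the 10 genes, and Hspa8 and Hsp90aa1 had none. The 3-unit heat-shock element was searched as GAANNTTCNNGAA or TTCNNGAANNTTC, the 2-unit form within it as GAANNTTC or TTCNNGAA, and both strands were read. A gene was counted if any of its windows held the element, and some of the 8 genes have 2 or 3 windows. The percentages are of single windows, so the 2 are not in like units. The 3-unit form was found in Hsph1 and Hspd1 and in 0.603% of all 32851 windows. The 2-unit form was found in Hsph1, Hspd1, Hspa1a, Hspa1b and Hspb1 and in 15.1% of windows. The ER stress element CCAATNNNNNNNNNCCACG was found in Hspa5 and in 0.119% of windows. The cAMP response element TGACGTCA, which activity-driven genes often carry, was found in none of the 8 and in 1.79% of windows. The matched stretches are written below in the direction of the gene, with the element in capitals, to show which members carry which element.
Hsph1 at chr5:149636287-149636308, minus strand: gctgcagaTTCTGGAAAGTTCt
Hsph1 at chr5:149636351-149636380, minus strand: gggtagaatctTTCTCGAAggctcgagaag
Hspd1 at chr1:55088053-55088082, minus strand: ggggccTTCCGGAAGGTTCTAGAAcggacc
Hspa1a at chr17:34972242-34972271, minus strand: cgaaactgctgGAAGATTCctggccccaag
Hspa1b at chr17:34959324-34959353, minus strand: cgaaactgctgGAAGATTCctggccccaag
Hspb1 at chr5:135887791-135887820, plus strand: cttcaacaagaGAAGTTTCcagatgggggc
Hspb1 at chr5:135887811-135887840, plus strand: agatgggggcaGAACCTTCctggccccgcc
Hspa5 at chr2:34772020-34772048, plus strand: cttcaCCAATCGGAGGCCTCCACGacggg

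The first Hsph1 stretch begins its element 37 bases after the start site and the second 33 bases before it. The Hspd1 run of heat-shock units starts 144 bases before the start site of its inner promoter. The Hspa1a and Hspa1b windows were the same at 296 of 300 bases. The windows of Dnajb1 and Dnajb5 held neither form of the heat-shock element. For comparison, the 150 bases before the first Dnajb1 start site, which hold no such letters, are given on the plus strand.
Dnajb1 at chr8:83608025-83608174, plus strand: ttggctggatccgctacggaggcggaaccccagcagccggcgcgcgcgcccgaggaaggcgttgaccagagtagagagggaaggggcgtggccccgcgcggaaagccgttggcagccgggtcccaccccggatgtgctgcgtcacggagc
A match is a run of letters and was not tested as a binding site. Inexact or more distant elements were not searched, so a window without a match does not show that a gene lacks one.

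In VIP nuclei of dCre mice, 6 of the 8 chaperones with enough counts to test were higher after light, averaged over the 3 lines. These were Hsph1, Dnajb1, Dnajb5, Hspa8, Hsp90aa1 and Hspa5. In the same comparison 3.97% of all 20585 genes tested were called higher (817 genes) and 6.27% were called in either direction, at an adjusted p under 0.05 in edgeR's quasi-likelihood test. The median log2 difference of the 8 chaperones was 1.65, against 0.01 over all genes. Differences are on the log2 scale, where each unit is a factor of 2, and are given with their standard error (SE). Hspa1b and Hspb1 were not tested, because they held 3 and 68 counts in all 48 VIP libraries. In pools of nuclei, fewer cells of a type that express a gene and less RNA per cell cannot be told apart.

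Hsph1 (ENSMUSG00000029657, chr5:149614287-149636376, minus strand, mm10) encodes an HSP110 protein, which frees ADP from HSP70 and helps it pull aggregates apart. In dark dCre VIP nuclei it stood at 23.9, 15.1 and 14.8 CPM in line E1, at 32.3, 33.1, 32.4 and 16.8 CPM in line E23 and at 19.98, 35.4, 27.5 and 35.8 CPM in line E123. After light it stood at 45.8, 113, 123.4, 56.9 and 103 CPM in line E1, at 110, 90.0, 285 and 56.4 CPM in line E23 and at 153, 93.6, 93.9 and 48.2 CPM in line E123. Every light library of any line lay above every dark library of any line. The log2 difference was 2.08 ± 0.277, with adjusted p = 2.96e-06 in edgeR.

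Dnajb1 (ENSMUSG00000005483, chr8:83608193-83612653, plus strand) encodes HSP40, the J-domain partner that hands substrates to HSP70 and starts its ATP cycle. Dark dCre VIP libraries held 0.655, 1.12 and 8.67 CPM in line E1, 4.65, 8.90, 3.68 and 3.11 CPM in line E23, and 0.266, 3.20, 5.26 and 3.63 CPM in line E123. Light libraries held 12.5, 18.6, 12.7, 18.6 and 23.6 CPM in line E1, 26.3, 71.8, 77.7 and 35.9 CPM in line E23, and 32.9, 33.8, 7.67 and 10.7 CPM in line E123. Light lay above dark in each line, and over all lines only the lowest light library fell among the highest dark ones. The log2 difference was 2.81 ± 0.41 (adjusted p = 1.94e-05, edgeR).

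Dnajb5 (ENSMUSG00000036052, chr4:42949814-42959425, plus strand), a J-domain protein of the same class that is known in muscle for binding class II histone deacetylases, rose less evenly. Its level was 1.80 to 21.8 CPM in the dark with a median of 7.21 CPM, and 5.84 to 51.7 CPM in light with a median of 13.2 CPM. The groups were apart in line E1, where dark libraries reached 3.57 CPM and light libraries began at 9.19 CPM, and they overlapped in lines E23 and E123. The log2 difference was 1.41 ± 0.444 with adjusted p = 0.0451. It no longer passed in 16 of the 24 fits that left out a single library, with adjusted p up to 0.102.

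Hspa1a (ENSMUSG00000091971, chr17:34969190-34972156, minus strand) encodes the inducible HSP70 and was near the detection limit, with counts in 28 of 48 VIP libraries and at most 15.3 CPM. In dCre mice its median was 0 CPM in the dark and 0.755 CPM in light, with libraries at 0 in both. Its log2 difference of 3.06 ± 1.178 did not pass (adjusted p = 0.104). Hspa1b (ENSMUSG00000090877, chr17:34956436-34959238, minus strand) is a nearly identical neighbouring copy, so reads that match both may have been divided or dropped in counting, and Hspa1a and Hspa1b are uncertain as separate genes. Gm20481 lies across Hspa1a on the other strand, and the chemistry does not mark strand, so their reads cannot be told apart either. Hspb1 (ENSMUSG00000004951, chr5:135887919-135889563, plus strand), the small heat-shock protein HSP27, was detected in 8 of 48 VIP libraries and at no more than 3.73 CPM.

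**Figure D1:**
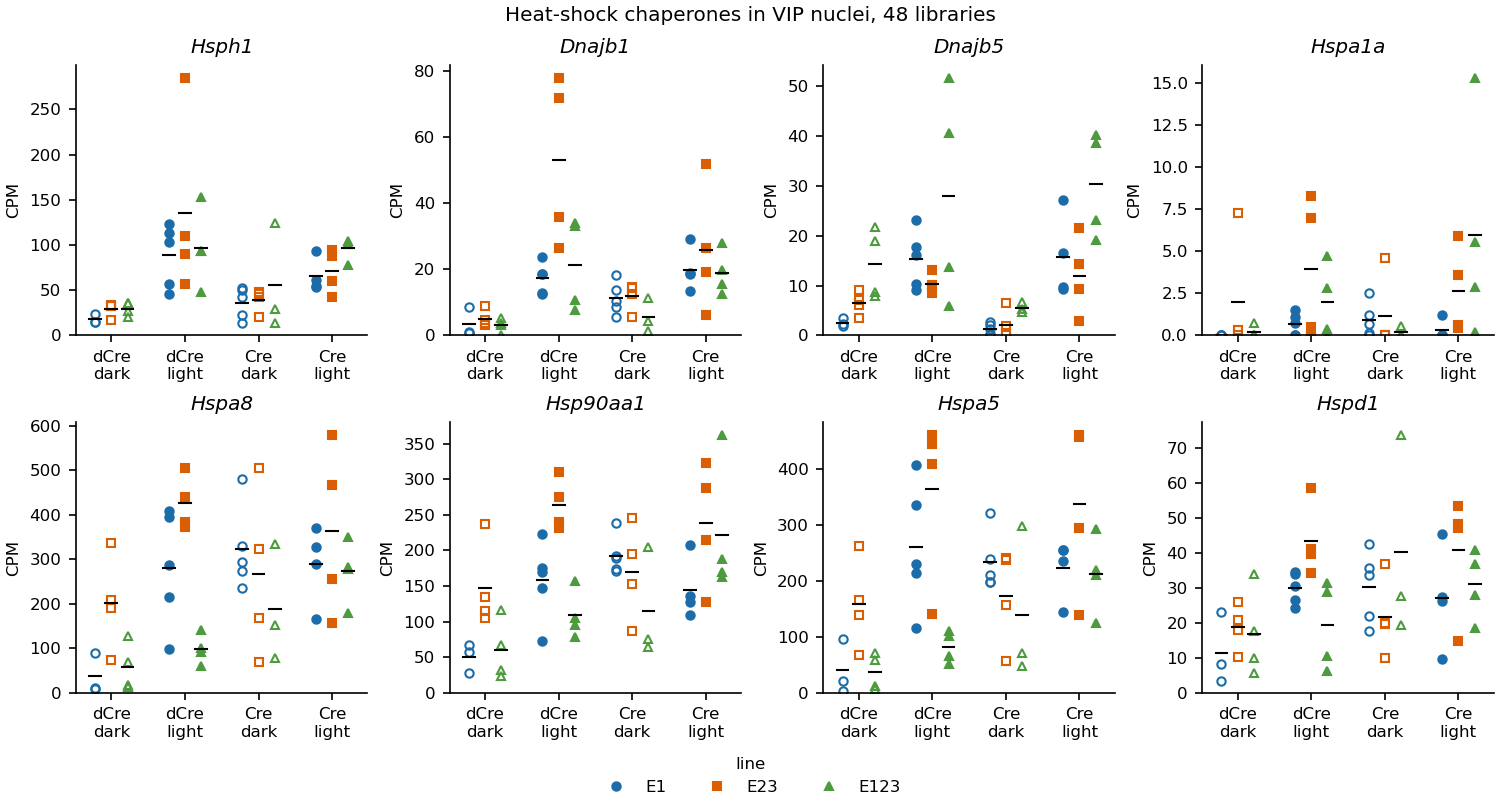
Level of each tested chaperone in VIP nuclei in CPM on a linear axis, with 1 point per library, open for dark and filled for light, and a bar at the mean of each line. Hsph1 in dCre mice lies between 14.8 and 35.8 CPM in the dark and between 45.8 and 285 CPM in light, while Hspa8 overlaps widely.

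Hspa8 (ENSMUSG00000015656, chr9:40800984-40810087, plus strand) encodes HSC70, the constantly made HSP70 that removes clathrin from vesicles and takes part in chaperone-mediated autophagy. In dark dCre VIP nuclei it stood at 11.5, 9.22 and 88.4 CPM in line E1, at 73.5, 208, 190 and 338 CPM in line E23 and at 13.1, 17.5, 68.1 and 128 CPM in line E123. In light it stood at 98.6, 409, 394, 216 and 287 CPM in line E1, at 385, 505, 372 and 441 CPM in line E23 and at 140, 92.0, 59.9 and 99.9 CPM in line E123. The 4 lowest dark values belong to the 4 libraries with an index of 4.37 or more, and in line E123 the groups overlapped. The log2 difference was 1.60 ± 0.378 (adjusted p = 0.0104, edgeR).

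Hsp90aa1 (ENSMUSG00000021270, chr12:110690605-110702728, minus strand), the stress-inducible HSP90 that matures kinases and steroid receptors, ranged from 22.9 to 237 CPM in the dark (median 67.5 CPM) and from 72.4 to 310 CPM in light (median 169.9 CPM). It differed by 1.12 ± 0.227 on the log2 scale (adjusted p = 0.00247, edgeR). Hspa5 (ENSMUSG00000026864, chr2:34771970-34777547, plus strand), the ER chaperone BiP, ranged from 3.35 to 262 CPM in the dark (median 67.5 CPM) and from 52.1 to 461 CPM in light (median 214 CPM). It differed by 1.69 ± 0.394 (adjusted p = 0.00987). Both genes were apart between dark and light in line E1 and overlapped in lines E23 and E123. Hspd1 (ENSMUSG00000025980, chr1:55077835-55088243, minus strand), the mitochondrial HSP60, had medians of 17.7 and 31.5 CPM and a log2 difference of 0.93 ± 0.313 that missed the threshold (adjusted p = 0.0597). Hspe1, the HSP10 partner of Hspd1, starts within the Hspd1 gene on the opposite strand, so a share of Hspd1 reads may be of Hspe1.

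Hsph1 and Dnajb1 were the 2 chaperones whose light libraries lay above all dark libraries of the same line in each of the 3 dCre lines. This held for 20 of 20585 genes, or 0.0972%. Within line E1, light lay above dark for 7 of the 8 chaperones, against 6.47% of genes. In line E23 it did so for 4 of 8 against 2.25%, and in line E123 for 2 of 8 against 2.22%. In tests of single lines, Hsph1 (2.30 ± 0.511, adjusted p = 0.00903), Hspa8 (2.94 ± 0.735, adjusted p = 0.0198), Hsp90aa1 (1.63 ± 0.419, adjusted p = 0.0196) and Hspa5 (2.68 ± 0.751, adjusted p = 0.0339) passed in line E1, where 4.18% of genes were called. In line E23, where 0.0486% of genes were called, Hsph1 and Dnajb1 passed at 2.24 ± 0.467 and 3.36 ± 0.691 (adjusted p = 0.031 for both). In line E123, with 0.00972% called, no chaperone passed, and Hsph1 stood at 1.71 ± 0.46 and Dnajb1 at 2.80 ± 0.691 (adjusted p = 0.292 and 0.198). No chaperone passed a test of the difference in light response between lines. Lines E1 and E123 differed for 11 genes (0.0534%), and the other pairs for 0 genes in edgeR, with 11.3% (E1 and E23) and 4.8% (E23 and E123) of genes at an unadjusted p under 0.05.

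In VIP nuclei of Cre mice, 1 of the 8 chaperones was called after light, Dnajb5, in a comparison that called 0.267% of genes higher and 0.35% in either direction. Dnajb5 stood at 0 to 6.79 CPM in the dark (median 1.90 CPM) and at 2.81 to 40.2 CPM in light (median 17.9 CPM). Light lay above dark in lines E1 and E123, and in line E23 1 light library at 2.81 CPM fell below the highest dark library at 6.50 CPM. The log2 difference was 2.82 ± 0.469 (adjusted p = 0.000442, edgeR), and without line E1 it was 2.42 and did not pass (adjusted p = 0.0608). The median of the 8 chaperones was 0.67, against 0.00 over all genes.

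Hsph1 in Cre VIP nuclei stood at 42.3, 50.7, 22.8, 13.6 and 52.0 CPM in the dark and at 54.9, 61.3, 93.5 and 53.7 CPM in light in line E1. In line E23 it stood at 20.3, 47.7, 42.4 and 45.4 CPM in the dark and at 42.4, 88.2, 94.7 and 60.0 CPM in light. In line E123 it stood at 29.3, 13.6 and 124 CPM in the dark and at 102, 78.1, 104 and 101 CPM in light. Light lay above dark in line E1, and in line E123 a single dark library was higher than every light library. The log2 difference of 0.84 ± 0.263 missed the threshold (adjusted p = 0.173), and it was 1.32 with adjusted p = 0.00504 without that library, replicate 3 of dark Cre line E123. Dnajb1 ranged from 1.27 to 18.1 CPM in the dark and from 6.09 to 51.7 CPM in light, a difference of 1.23 ± 0.376 (adjusted p = 0.16).

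The other members in Cre VIP nuclei did not pass. Hspa8 differed by 0.27 ± 0.361, Hsp90aa1 by 0.34 ± 0.221, Hspa5 by 0.50 ± 0.376 and Hspd1 by 0.12 ± 0.305, with adjusted p of 0.725 or more in edgeR. Hspa1a differed by 1.53 ± 1.1 (adjusted p = 0.768). Light lay above dark for 2 of 8 chaperones in line E1 (0.855% of genes), 0 of 8 in line E23 (1.4%) and 2 of 8 in line E123 (3.88%). No chaperone did so in each of the 3 lines, which 0.034% of genes did. No chaperone passed in a single line, where 0.0146%, 0.0146% and 0.00486% of genes were called, and Dnajb5 in line E1 came nearest at 3.63 ± 0.755 (adjusted p = 0.0553).

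**Figure D2:**
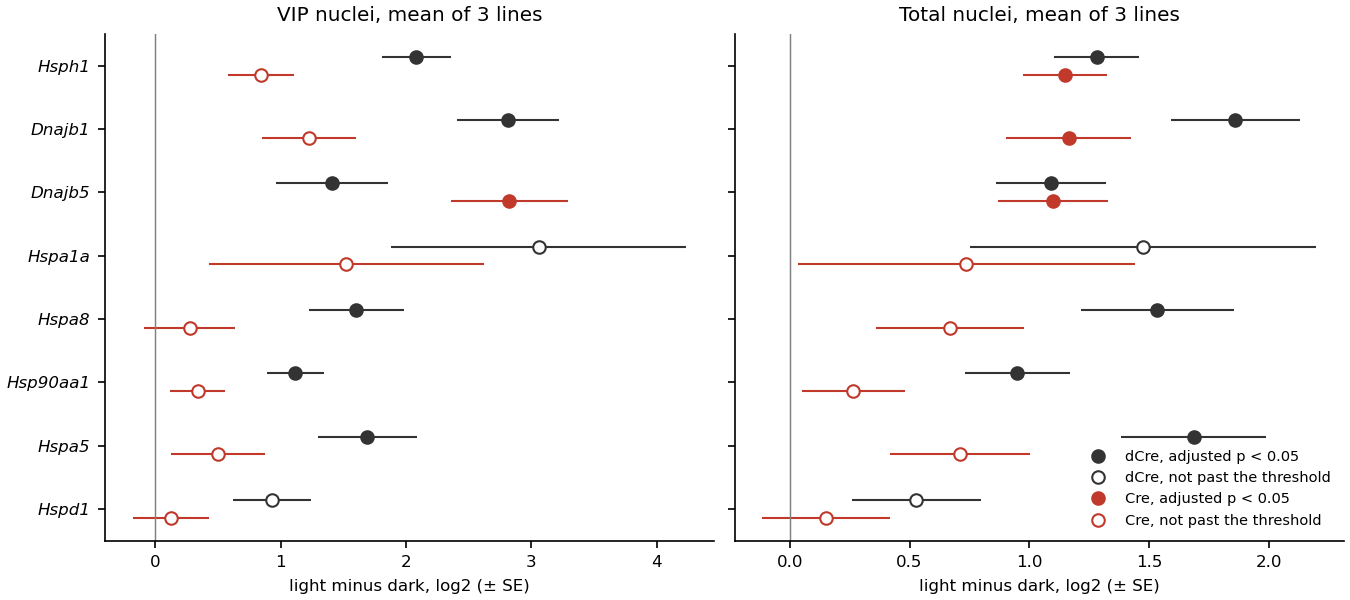
Log2 difference between light and dark with its standard error for 8 chaperones, averaged over 3 lines, in VIP nuclei (left) and total nuclei (right), for dCre and Cre mice; the 2 panels have different horizontal scales and filled points passed at an adjusted p under 0.05. In VIP nuclei 6 chaperones are filled for dCre and only Dnajb5 for Cre.

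The difference between the viruses was tested as an interaction. In VIP nuclei 7 of the 8 chaperones had a lower estimate of the light response with Cre than with dCre, and none passed the test. It called 1 of 20585 genes (0.00486%), with 9.28% of genes at an unadjusted p under 0.05. The 8 estimates rest on the same libraries, so they are not separate observations. The share of all genes with a lower estimate is not reported here. Hsph1 stood at -1.24 ± 0.371 (adjusted p = 0.334), Dnajb1 at -1.59 ± 0.532 (adjusted p = 0.334) and Hspa8 at -1.33 ± 0.515 (adjusted p = 0.43). Hsp90aa1 stood at -0.78 ± 0.314, Hspa5 at -1.19 ± 0.534, Hspd1 at -0.81 ± 0.434 and Hspa1a at -1.53 ± 1.21. Dnajb5 had the opposite sign, at 1.42 ± 0.614 (adjusted p = 0.48). Without replicate 3 of dark dCre line E1, Dnajb1 (-2.26, adjusted p = 0.0164) and Hspa8 (-1.93, adjusted p = 0.0271) passed, in a fit that called 332 genes in place of 1. That fit kept only replicates 1 and 2 for dark dCre line E1, which stood apart with a length index of 4.40 and 4.37. With the length index as a covariate the interaction called no gene.

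In dark VIP nuclei, 4 of the 8 chaperones were higher with Cre than with dCre, in a comparison that called 3.88% of genes higher and 6.11% in either direction. Hspa8 had a median of 284 CPM with Cre and 73.5 CPM with dCre, and differed by 1.76 ± 0.386 (adjusted p = 0.00895, edgeR). Hsp90aa1 differed by 1.03 ± 0.231 (adjusted p = 0.00841), Hspa5 by 1.54 ± 0.398 (adjusted p = 0.0196) and Dnajb1 by 1.26 ± 0.397 (adjusted p = 0.0455). Hsph1 (0.79 ± 0.272, adjusted p = 0.0676), Hspd1 (0.96 ± 0.319, adjusted p = 0.0567), Hspa1a (1.55 ± 1.03, adjusted p = 0.393) and Dnajb5 (-1.30 ± 0.46, adjusted p = 0.0765) did not pass. The count of passing chaperones turned on single dark libraries, and so did the count of all genes called, 1257 with every library. The count of chaperones was 2 without dCre line E1 replicate 1, 1 (224 genes) without Cre line E123 replicate 3 and 7 (1991 genes) without Cre line E23 replicate 1. It was 0, as for all genes, with the length index as a covariate or without replicates 1 and 2 of dark dCre line E1. In light VIP nuclei no chaperone passed between the viruses, where 1 gene (0.00486%) did in edgeR and 5.6% of genes had an unadjusted p under 0.05. The members' differences there ran from -0.45 for Hsph1 to 0.43 for Hspa8. The dark dCre libraries enter both the light comparison of dCre mice and the dark comparison of viruses, so those results share samples.

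The dark dCre libraries had the highest mean length index of the 4 conditions in both fractions. The length index in VIP nuclei was 3.44 ± 0.836 (SD, n = 11) in dark dCre libraries, 2.77 ± 0.549 (n = 13) in light dCre, 2.61 ± 0.519 (n = 12) in dark Cre and 2.56 ± 0.329 (n = 12) in light Cre. The index of dark dCre libraries was 3.9 ± 0.841 in line E1, 3.89 ± 0.62 in line E123 and 2.66 ± 0.421 in line E23. In total nuclei it was 3.15 ± 0.795 in dark dCre libraries and 2.60 to 2.64 on average in the other 3 conditions. Its mean was thus lower in light than in the dark with dCre, and lower with Cre than with dCre in the dark.

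The level of Hspa8 fell with the length index among libraries of the same condition. Its Pearson r was -0.97 in light dCre (Spearman rho -0.90), -0.93 in dark Cre (rho -0.87) and -0.88 in light Cre (rho -0.94), with adjusted permutation p of at most 0.00245 over 32 relations. Without the 2 libraries farthest from the median index r was -0.96, -0.89 and -0.81. In light dCre the mean index was 3.43, 2.70 and 2.21 in lines E123, E1 and E23. Mean Hspa8 there was 97.9, 281 and 426 CPM. Differences between lines thus enter these values of r, and relations within a line were not tested. The dark dCre libraries fall into 2 clusters of the index, so r was taken over the 7 below 4 alone, where it was -0.89 for Hspa8 and -0.93 for Hspa5 (exact permutation test, adjusted p = 0.0238 and 0.00952, rho -0.89 and -0.93 with adjusted p = 0.0492 for both). Hspa5 had r of -0.85, -0.89 and -0.78 in the other 3 conditions, and all 3 passed by both measures. Hsp90aa1 passed in light dCre and dark Cre, at r = -0.93 and -0.87, and was at -0.63 in light Cre (adjusted p = 0.0511) and -0.78 over the 7 dark dCre libraries (exact permutation test, adjusted p = 0.111). Hspd1 passed by both measures in light dCre (r = -0.64, rho -0.63) and light Cre (r = -0.73, rho -0.69), with adjusted permutation p of at most 0.0483, and was at -0.37 in dark Cre and -0.22 over the 7 dark dCre libraries. Hspa1a, near its detection limit, passed in no condition.

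No relation of Hsph1 with the index passed, with r of -0.35 in light dCre, -0.13 in dark Cre, -0.16 in light Cre and 0.41 over the 7 dark dCre libraries. Dnajb1 lay between them, at -0.57, -0.61 and -0.76, and at 0.11 over the 7 dark dCre libraries. It passed by both measures in light Cre alone (adjusted permutation p = 0.0046 for r). Without the 2 farthest libraries Dnajb1 was at -0.33, -0.24 and -0.66, and at -0.64 among the 7 dark dCre libraries. Dnajb5 ran the other way in dark Cre, at r = 0.65 (adjusted p = 0.0477), and this fell to 0.40 without the 2 farthest libraries. Libraries with a high index were thus low in Hspa8 and Hspa5 in every condition. For Hsph1 this was not detectable with 7 to 13 libraries a condition. Hspa8 (9104 bases), Hspa5 (5578), Dnajb1 (4461), Dnajb5 (9612) and Hspa1a (2967) are under 10000 bases, the class whose mean the index subtracts. The members themselves were left out of that mean. Other genes of the same length class define it, so the relations of these short members with the index are not independent of gene length. Hspd1 (10409 bases), Hsp90aa1 (12124) and Hsph1 (22090) are longer. The share of all genes that fall with the index was not tested.

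**Figure D3:**
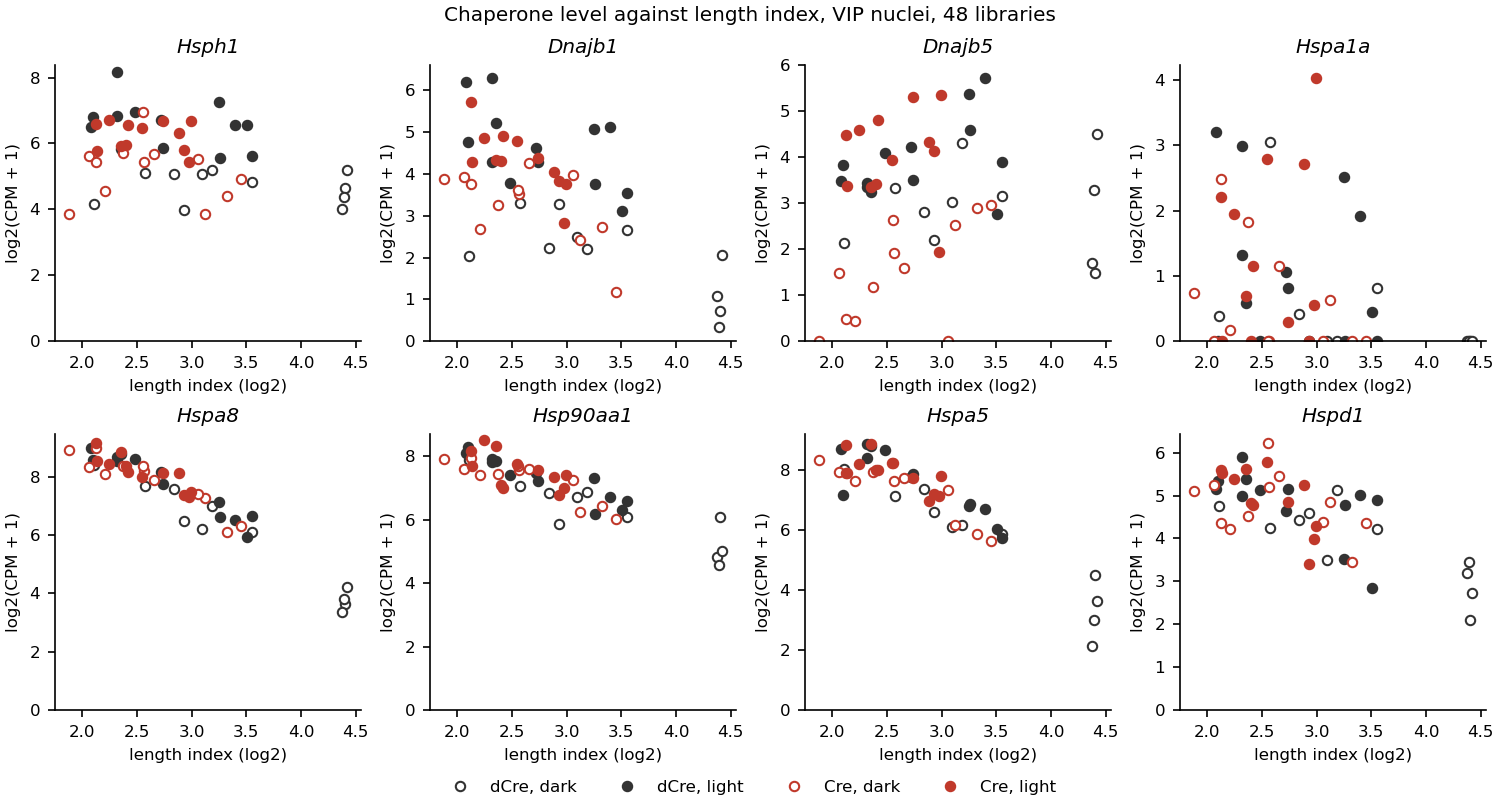
Level of each tested chaperone as log2(CPM + 1) against the length index of the library, for 48 VIP libraries, with open points for dark, filled points for light, black for dCre and red for Cre. Hspa8, Hsp90aa1 and Hspa5 fall along the index, Hsph1 does not fall in this way, and the 4 libraries at 4.37 to 4.42 are all dark dCre.

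The light response in dCre VIP nuclei was fitted again with the index as a covariate and without the libraries that stood apart. In either direction 6.27% of genes were called before, and 0.714% with the index, 0.304% without replicates 1 and 2 of dark dCre line E1, 0.192% without those of lines E1 and E123 and 0.447% without line E1. With the index as a covariate 3 chaperones passed: Hsph1 at 1.83 (adjusted p = 0.00211, edgeR), Dnajb1 at 2.14 (adjusted p = 0.00208) and Hspa8 at 0.64 (adjusted p = 0.0309). Hspa5 stood at 0.84 (adjusted p = 0.105), Hsp90aa1 at 0.36 (adjusted p = 0.463), Hspd1 at 0.33 and Dnajb5 at 1.66 (adjusted p = 0.124). Without replicates 1 and 2 of dark dCre line E1, 2 passed, Hsph1 at 2.18 (adjusted p = 0.00344) and Dnajb1 at 2.38 (adjusted p = 0.0173). The same 2 genes passed without those replicates of both lines E1 and E123, at 2.15 and 2.22 (adjusted p = 0.00682 and 0.0317). They also passed without line E1, at 1.98 and 3.08 (adjusted p = 0.00056 and 0.00024).

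Hspa8, Hsp90aa1 and Hspa5 did not pass in the 3 fits with fewer libraries. Their differences were 1.176, 1.06 and 1.27 without the E1 replicates, and 0.92, 0.86 and 1.01 without the replicates of both lines. Fewer libraries also leave a wider error, and the parts played by the index and by the number of libraries cannot be told apart there. Leaving out the library whose sex label did not match gave 5 passing chaperones, with Dnajb5 at 1.5 (adjusted p = 0.0537) the exception. No chaperone passed in the dark comparison of viruses with the index as a covariate, without the E1 replicates or without those of both lines, and in these 3 fits no gene of all those tested was called by edgeR. Hspa8 stood there at 0.45, 1.34 and 1.07. Without the library with the unmatched sex label 3 passed in that comparison. What the index measures in the tissue, and its part in the light response, was not tested.

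**Figure D4:**
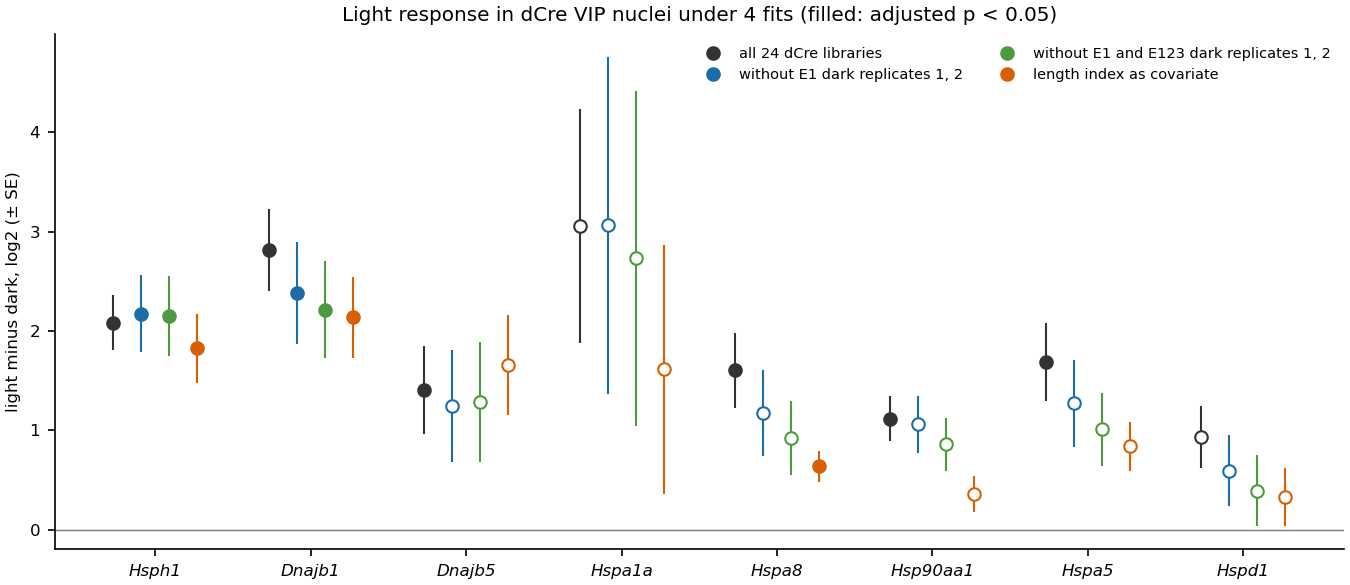
Log2 difference between light and dark in dCre VIP nuclei with its standard error under 4 fits, for 8 chaperones; filled points passed at an adjusted p under 0.05. Hsph1 stays between 1.83 and 2.18 and Dnajb1 between 2.14 and 2.81 and both are filled in all 4 fits, while Hspa8 runs from 1.60 to 0.64.

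Total nuclei were sorted from cortex of the same 12 conditions, and Cre or dCre can be made only in the Flp-expressing cells among them. With dCre, 6 of 8 chaperones were higher after light, the same 6 genes as in VIP nuclei, in a comparison that called 3.42% of 21213 genes higher and 5.69% in either direction. Hsph1 had a median of 61.9 CPM in the dark (28.7 to 97.8 CPM) and 131.9 CPM in light (88.4 to 217 CPM), and differed by 1.28 ± 0.176 (adjusted p = 2.57e-06, edgeR). Dnajb1 had medians of 12.4 and 31.9 CPM and differed by 1.86 ± 0.269 (adjusted p = 6.88e-06). Light lay above dark in each of the 3 lines for Hsph1, Dnajb1 and Hspa5, which 0.127% of genes did. It did so for 5 of 8 chaperones in each single line, against 5.3% of genes in line E1, 2.38% in line E23 and 3.12% in line E123. Dnajb5 (1.09 ± 0.231), Hspa8 (1.53 ± 0.32), Hsp90aa1 (0.95 ± 0.22) and Hspa5 (1.68 ± 0.305) passed with adjusted p of at most 0.00581. Hspa1a (1.47 ± 0.722, adjusted p = 0.234) and Hspd1 (0.53 ± 0.269, adjusted p = 0.258) did not. In single lines with dCre, Dnajb1, Hspa8, Hsp90aa1 and Hspa5 passed in line E1, at 2.02, 2.34, 1.498 and 2.34, where 3.68% of genes were called. Hsph1 (1.76) and Dnajb1 (2.21) passed in line E123 (0.372% called) and no chaperone did in line E23 (0.179%). Without replicates 1 and 2 of dark dCre lines E1 and E123, Hsph1 (1.07, adjusted p = 0.00838) and Dnajb1 (1.505, adjusted p = 0.0102) alone passed, and 0.656% of genes were called.

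With Cre, 3 of 8 chaperones were higher after light in total nuclei, where 1.09% of genes were called higher and 1.49% in either direction. Hsph1 had medians of 63.8 CPM in the dark (27.0 to 116 CPM) and 129 CPM in light (75.0 to 197 CPM). It differed by 1.15 ± 0.175 (adjusted p = 2.08e-05, edgeR), Dnajb1 by 1.16 ± 0.262 (adjusted p = 0.00739) and Dnajb5 by 1.10 ± 0.23 (adjusted p = 0.00337). These 3 are the co-chaperones of HSP70 among the members. Light lay above dark for 1 of 8 chaperones in line E1 (1.44% of genes), 2 of 8 in line E23 (2.09%) and 5 of 8 in line E123 (4.29%). Hspa8 (0.67 ± 0.31, adjusted p = 0.367), Hspa5 (0.71 ± 0.293, adjusted p = 0.286), Hsp90aa1 (0.27 ± 0.216, adjusted p = 0.724), Hspa1a (0.74 ± 0.703, adjusted p = 0.788) and Hspd1 (0.15 ± 0.266, adjusted p = 0.923) did not pass. In single lines with Cre, Hsph1 passed in lines E23 (1.38, adjusted p = 0.0249) and E123 (1.71, adjusted p = 0.0129), where 0.123% and 0.0566% of genes were called. Without line E1 Dnajb5 stood at 1.07 (adjusted p = 0.0794), and without line E123 Dnajb1 stood at 0.64 (adjusted p = 0.462).

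The interaction of light and virus in total nuclei passed for no gene in edgeR, with 8.93% of genes at an unadjusted p under 0.05. Hspa5 stood at -0.98 ± 0.413 (adjusted p = 0.468) and Hsp90aa1 at -0.68 ± 0.306 (adjusted p = 0.496). The other 6 had an unadjusted p of 0.0547 or more. Without replicate 3 of dark dCre line E1, Hspa8 passed at -1.49 (adjusted p = 0.0412), in a fit that called 156 genes. That fit kept only replicates 1 and 2 for dark dCre line E1, whose VIP libraries stood apart. With the length index as a covariate the interaction called no gene. In the dark, total nuclei of Cre mice had higher values than those of dCre mice for Hspa8 (0.95 ± 0.321, adjusted p = 0.177), Hspa5 (1.05 ± 0.304, adjusted p = 0.139) and Hsp90aa1 (0.61 ± 0.223, adjusted p = 0.202). None passed, the other 5 had an unadjusted p of 0.0847 or more, and 0.0801% of genes were called. Without replicate 3 of dark dCre line E1 these 3 genes and Hspd1 passed, with 1382 genes called. Only replicates 1 and 2 again stood for dark dCre line E1 there. Without replicate 4 of dark dCre line E123 2 chaperones passed, with 274 genes called. In light no gene passed between the viruses in edgeR, and 6% had an unadjusted p under 0.05.

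**Figure D5:**
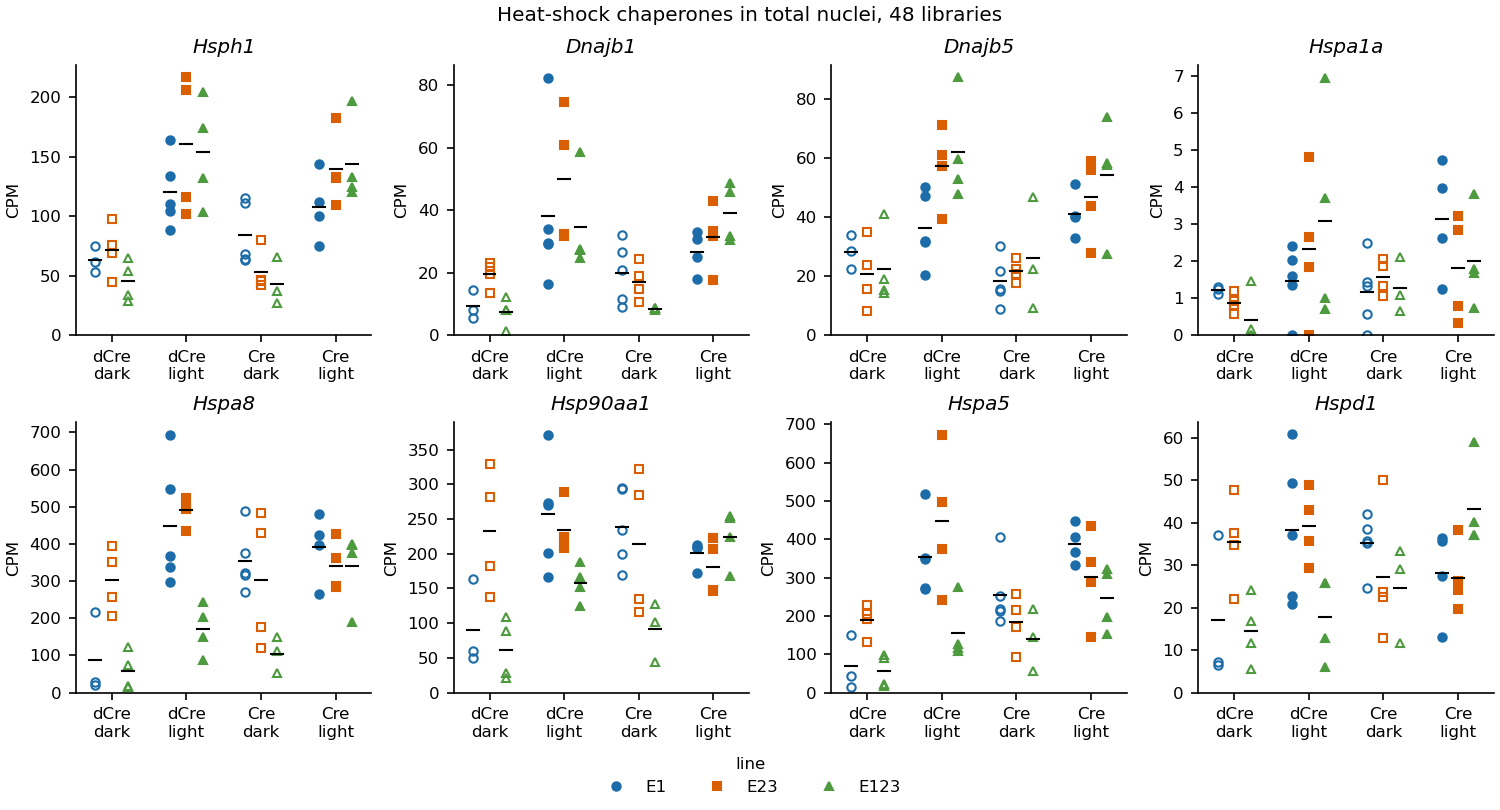
Level of each tested chaperone in total nuclei in CPM on a linear axis, with 1 point per library, open for dark and filled for light, and a bar at the mean of each line. Hsph1, Dnajb1 and Dnajb5 are higher in light for both viruses, while Hspa8 in the dark runs from 15.6 to 394 CPM with dCre and from 54.0 to 488 CPM with Cre.

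Between fractions, 3 chaperones were lower in VIP nuclei than in total nuclei when averaged over the 12 conditions, in a comparison that called 35.5% of 22926 genes, 20.7% lower and 14.8% higher. Dnajb5 was lower by -1.88 ± 0.168 (adjusted p = 4.49e-17, edgeR), Dnajb1 by -0.71 ± 0.16 and Hsph1 by -0.59 ± 0.114 (adjusted p = 0.000141 and 9.57e-06). Hspa1a (-0.82 ± 0.4), Hspa8 (-0.19 ± 0.168), Hsp90aa1 (-0.12 ± 0.112), Hspa5 (-0.24 ± 0.168) and Hspd1 (0.03 ± 0.146) did not pass. The labels do not say whether the VIP and total library of 1 number come from 1 animal, and the fit treated them as independent. With each such pair as a block more chaperones passed, as given in the closing section. The light response did not pass as different between the fractions for any chaperone. The nearest values were Hsph1 in dCre mice (0.78 ± 0.323, adjusted p = 0.655) and Dnajb5 in Cre mice (1.72 ± 0.465, adjusted p = 0.221), where 0% and 0.00872% of genes were called in edgeR, with 5.94% and 5.3% of genes having an unadjusted p under 0.05.

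Ordered over the 12 conditions in VIP nuclei, the mean level of Hsph1 was highest in light dCre line E23, at 135 ± 102 CPM (SD, n = 4), and then in light dCre E123 (97.1 ± 42.9 CPM), light Cre E123 (96.3 ± 12.2 CPM) and light dCre E1 (88.4 ± 34.8 CPM). It was lowest in dark dCre E1 at 17.9 ± 5.19 CPM (n = 3), below dark dCre E23 (28.7 ± 7.91 CPM) and E123 (29.7 ± 7.51 CPM). All 6 light groups stood above all 6 dark groups in the mean, and 1 of the 11 neighbouring pairs in the order was farther apart than the spread of its libraries. For Dnajb1, 3 of 11 neighbours were apart, with means from 3.09 ± 2.08 CPM in dark dCre E123 to 52.9 ± 25.6 CPM in light dCre E23. For Dnajb5, 2 were apart, with means from 1.28 ± 1.14 CPM in dark Cre E1 to 30.3 ± 10.6 CPM in light Cre E123. For Hspa8, Hspa5 and Hspd1 no neighbours were apart.

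Other chaperone families were read from lists drawn up by name. The background is the 3.97% of all genes called higher in dCre VIP light, and a count of 1 in 13 is close to it. After light in dCre VIP nuclei, 6 of 8 subunits of TRiC, the cytosolic ring that folds actin and tubulin, rose, with Cct4 at 1.33 ± 0.273, Cct6a at 1.01 ± 0.216, Cct5 at 1.24 ± 0.268 and Cct7 at 1.39 ± 0.387. Of 14 other ER chaperones tested 7 rose, among them Hsp90b1, the ER form of HSP90 (1.11 ± 0.196), Pdia6, a disulfide isomerase (1.32 ± 0.281), Canx, a lectin that holds glycoproteins (0.74 ± 0.164), and Sdf2l1 (3.35 ± 0.808). Of 13 HSP90 genes and cochaperones 5 rose, with Stip1, which bridges HSP70 and HSP90, at 1.27 ± 0.244, Fkbp4, an immunophilin of steroid receptor complexes, at 1.41 ± 0.304, Hsp90ab1 at 1.23 ± 0.281 and Ahsa1, which speeds the ATPase of HSP90, at 0.97 ± 0.284. The list medians were 1.09, 0.98 and 0.66, against 0.01 over all genes.

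Of 13 other J-domain proteins 1 rose, Dnaja1 (1.21 ± 0.221), and of 10 genes of the unfolded protein response 3 rose, all of them transcription factors, Xbp1 (1.79 ± 0.373), Atf3 (5.84 ± 1.58) and Ddit3 (0.83 ± 0.247). Of 7 exchange factors of HSP70, Bag1 rose (1.86 ± 0.498) and Sil1 fell by 0.68 ± 0.214. Of 6 regulators of HSF, Hsbp1, which binds HSF1 and restrains it, rose (1.29 ± 0.346). Each of these genes had an adjusted p of at most 0.0443 in edgeR. No gene passed among 8 other HSP70 and HSP110 genes, 5 small heat-shock proteins and 9 other mitochondrial chaperones. Most of these calls were lost in the other fits, as were most calls over all genes. Of 93 genes in the 10 lists 24 were higher, and 1 was with the length index as a covariate (Xbp1), 1 without replicates 1 and 2 of dark dCre line E1 (Cct4), 0 of 94 without those of lines E1 and E123, and 1 without line E1 (Dnaja1). In Cre VIP nuclei no gene of any of these 10 lists passed, where 0.35% of all genes were called in either direction. In total nuclei with dCre, 7 of 8 TRiC subunits, 10 of 15 ER chaperones and 6 of 13 HSP90 genes rose, and with Cre 1 of 6 HSF regulators did. Over all genes in total nuclei, 3.42% with dCre and 1.09% with Cre were called higher. The lists were not fitted again in total nuclei. Calls over all genes there with dCre, in either direction, fell from 5.69% to 0.656% without replicates 1 and 2 of dark dCre lines E1 and E123.

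Markers of other cell types and genes known to respond to dissociation were measured beside these changes. Of 12 immediate-early genes that tissue dissociation can raise, and that light is also known to raise in visual cortex, 6 rose in dCre VIP nuclei and 4 in Cre VIP nuclei. Over all genes, light raised 3.97% with dCre and 0.267% with Cre, and a count of 1 in 12 is close to the first share. Fos rose by 3.12 ± 0.598 with dCre and 2.57 ± 0.566 with Cre, and Egr1 by 3.11 ± 0.39 and 2.41 ± 0.368, with adjusted p of at most 0.0232 in edgeR. Of 10 astrocyte markers 5 rose in dCre VIP nuclei, with summed levels of 221 to 387 CPM in the dark and 239.9 to 1573 CPM in light. Of 10 microglia markers 2 rose (74.6 to 174 CPM in the dark and 93.9 to 209 CPM in light), and of 12 oligodendrocyte markers 1 rose (94.3 to 423 CPM and 158 to 2093 CPM). Among neuronal lists, 4 of 13 VIP markers, 5 of 10 GABAergic markers and 1 of 12 excitatory markers rose, and none of 9 endothelial and mural markers passed. In Cre VIP nuclei 1 GABAergic marker passed and no gene of the other cell type lists did, and no listed glial gene was at 0 in all libraries. In the dark comparison of viruses, 2 of 10 astrocyte markers, 1 of 10 microglia markers and 1 of 9 endothelial and mural markers were higher with Cre, where 3.88% of genes were. In dCre VIP light, 9 of 53 glial, vascular and excitatory markers were higher, against 1 with the length index as a covariate and 0 without replicates 1 and 2 of dark dCre line E1. Calls over all genes, in either direction, also fell from 6.27% to 0.714% and 0.304% in those fits. Junb and Egr1 were the 2 immediate-early genes that still passed in each of those fits. The part of glial RNA in the chaperone levels was not tested.

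Across the 48 VIP libraries the chaperones were correlated by their log2(CPM + 1), given as a description with no test. Hspa8 correlated with Hspa5 at r = 0.95 and with Hsp90aa1 at r = 0.92, and Hspa5 with Hsp90aa1 at r = 0.91. Hsph1 correlated with Dnajb1 at r = 0.75 and with Hspa8 at r = 0.47. Dnajb1 was about as close to Hspa5 (r = 0.76), Hspa8 (r = 0.73) and Hsp90aa1 (r = 0.73), so it did not form a set with Hsph1 alone. Dnajb5 was at 0.00 with Hspa8 and Hsp90aa1 and at 0.56 with Hsph1. Measured as deviations from the mean of each group, Hspa8 and Hspa5 stood at r = 0.88 and Hsph1 and Dnajb1 at r = 0.46. By that measure Dnajb1 stood at 0.67 with Hspa5, 0.63 with Hspa8 and 0.54 with Hsp90aa1.

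Among 9074 genes of at least 10 CPM on average, the most like Hsph1 were Arc (r = 0.75), Nr4a1 (0.74), Egr1 (0.74) and Map1b (0.73). Arc, Nr4a1 and Egr1 are genes known to be raised by neuronal activity. The most like Dnajb1 were Mt1 (0.86), Xbp1 (0.80), Junb (0.80) and Selenow (0.79). The most like Hspa8 were Gapdh (0.97), Aldoa (0.97), Tuba1a (0.97) and Eif4a2 (0.96), short and highly made genes of glycolysis, tubulin and translation. These correlations are across the same 48 libraries, which share depth and RNA makeup within a library.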

How the data were processed

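The authors deposited raw read counts per gene for 96 libraries. Per the labels' protocols, RNA from sorted nuclei was amplified from poly(dT) primers without molecular identifiers or strand marking, so counts are of reads and not of molecules. The submitters' processing notes name cutadapt 1.18, STAR 2.5.3a, HOMER 4.9.1 and mm10; the annotation release and the strand setting are not given in the sources used here. Identifiers were named with GENCODE annotation of mm10, and 181 of 55335 had no symbol and held 0.0225% of counts. None of the 148 pairs of libraries within a group was a duplicate, and pairs across groups were not checked.

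Counts were tested with edgeR 4.0.16 (R 4.3.3; TMM scaling, default filter on low counts, robust quasi-likelihood F test, Benjamini-Hochberg adjustment over all genes) in 1 fit of 48 libraries per fraction with 12 group means, and in 1 fit of all 96 libraries for comparisons between fractions. An adjusted p under 0.05 passed. SE is the size of the log2 difference divided by the square root of F. CPM uses TMM library sizes. Correlations used permutation tests with 100000 resamples, or exact ones (Python 3.11.15, SciPy 1.17.1). Counts were simulated for the dCre VIP light comparison over 19697 genes. Of genes changed 4-fold, 49 of 100 were recovered, and 40 of 42 above 20 CPM. Of genes changed 2-fold, 17 of 100 were recovered, and 16 of 35 above 20 CPM. There were 6 false calls. Dnajb1, Dnajb5 and Hspa1a averaged under 20 CPM in VIP nuclei. The simulated libraries had no differences between lines and no shared RNA makeup, so they do not give the error rate of the real comparison. The labels do not say that replicates are separate litters or cultures, so p-values measure the spread between these libraries.

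Members, lists, covariates and alternatives were chosen with earlier results of these data known. The rule was to name all members in each comparison; where none passed, some comparisons name only those with an unadjusted p under 0.05 or the outermost values. It added up to 4 genes of smallest p from each other chaperone list and the 4 genes most like Hsph1, Dnajb1 and Hspa8. Alternatives were DESeq2 1.42.0, total-count scaling, no filter, no robust estimates, sex, length index or replicate number as a term, and leaving out lines, libraries that stood apart or each library in turn, and promoter windows of the 250 upstream bases alone. In the fit of both fractions, the replicate term joined the VIP and total library of the same line, virus, light and number. Fits without 1 library held the dispersion trend of the full fit.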

Additional observations from a re-analysis of the deposited data

Results flagged for a closer look

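Among 140 sets of 4 or 5 libraries of 1 member and 1 group, 13 had a library whose gap to its nearest neighbour exceeded Dixon's limit; chance flags about 1 in 20 such sets. In VIP nuclei, Hsph1 was low at 78.1 CPM in light Cre line E123 replicate 2 (nearest 101 CPM) and at 16.8 CPM in dark dCre line E23 replicate 4 (nearest 32.3 CPM). Hsp90aa1 was high at 363 CPM in light Cre line E123 replicate 3 (nearest 188 CPM). Hspa5 was low at 141 CPM in light dCre line E23 replicate 1 (nearest 410 CPM), and Hspd1 at 14.8 CPM in light Cre line E23 replicate 1 (nearest 47.1 CPM).

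In total nuclei, Hsph1 was high at 197 CPM in light Cre line E123 replicate 2 (nearest 133 CPM) and at 80.1 CPM in dark Cre line E23 replicate 3 (nearest 46.2 CPM). Dnajb1 was high at 82.4 CPM in light dCre line E1 replicate 5 (nearest 33.9 CPM) and at 58.6 CPM in light dCre line E123 replicate 1 (nearest 27.6 CPM). That last library was also high for Hspa5, at 274 CPM (nearest 126 CPM). Hspa8 was low at 191 CPM in light Cre line E123 replicate 1 (nearest 376 CPM), and Hsp90aa1 at 172 CPM in light Cre line E1 replicate 1 (nearest 208 CPM). Hspd1 was high at 59.0 CPM in light Cre line E123 replicate 2 (nearest 40.1 CPM). No chaperone's light response passed as different between viruses, dCre lines or fractions.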

How the results depend on the processing

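The number of chaperones that passed depended on which dark dCre libraries were used and on the length index. In dCre VIP light it was 6, and 3 with the length index, 2 without replicates 1 and 2 of dark dCre E1, 2 without those of E1 and E123, 2 without line E1, and 5 to 7 without any 1 library. In the dark VIP comparison of viruses it was 4, and 7 with DESeq2, 0 with the index, 0 and 0 without those replicates, 0 without line E1, 1 without line E123, and 1 to 7 without 1 library. In Cre VIP light it was 1, and 2 with no filter, 0 without line E1, and 1 to 2 without 1 library. The VIP interaction gave 0, and 3 with no filter and 0 to 2 without 1 library. In total nuclei, dCre light gave 6, and 2 without the E1 and E123 replicates and 6 to 7 without 1 library. Cre light gave 3, and 5 with no filter and 3 without any 1 library. The interaction gave 0, and 2 with no filter and 0 to 1 without 1 library. The dark comparison of viruses gave 0, and 2 with DESeq2, 3 with no filter, 3 without line E23 and 0 to 4 without 1 library. The light response between fractions with Cre gave 0, and 1 with DESeq2. The members correlated with the index in dark dCre VIP were 4 over 11 libraries and 2 over the 7 under 4, a choice made after seeing the data. The causes were not tested.

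With the VIP and total library of 1 group and number paired as a block, 6 chaperones in place of 3 differed between fractions. Within a fraction the block was the replicate number. The block moved no other count by over 1.5 times. Same-numbered libraries deviated together little (mean r of 0.0492 in VIP and 0.0312 in total nuclei), so the numbers were not taken to pair them. VIP and total libraries of 1 group and number deviated together more (mean r of 0.175, over 0.1 in 30 of 48 pairs), but not every pair passed 0.1. Of 1246 member values in other fits 69 changed sign, and of 3072 without 1 library 97 did, all of them uncalled. The changes among values the text gives singly follow. Between fractions they were Hspa1a at 0.0107 and Hsp90aa1 at 0.0363 without line E1, and Hspd1 at -0.0795 with total counts, -0.0023 with the block, -0.0905 without line E123 and -0.0223 to 0.0751 without 1 library. In Cre VIP light they were Hspa1a at -0.089 without line E123, and Hspd1 at -0.0176 with the index, -0.0077 with the block and -0.27 without line E23. Hspa1a stood in the VIP interaction at 0.27 with sex as a term, 0.78 without line E1 and -2.80 to 0.32 without 1 library. In the dark VIP comparison it stood at -0.19 with the index, -0.27 without line E1 and -0.30 to 2.59 without 1 library. In total nuclei Hspd1 stood at -0.0092 in dCre light without the E1 and E123 replicates, and in Cre light without line E123 Hsp90aa1 stood at -0.25 and Hspd1 at -0.17. No sign changed in dCre VIP light. Pools of 50 to 100 nuclei and few reads limit Hspa1a, Hspa1b and Hspb1.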
